A study of Mus musculus with 12 samples.

Results

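The probes described here are those whose RNA was far more abundant in untreated mouse embryonic stem cells than in a reference pool of other mouse cell lines, and whose ratio over that pool was near its starting level at 24 h and, on the mean of 72 and 96 h, after the supply of Sox2 was switched off. They number 571 of 42006 probes on the array. A member had a mean log2 ratio of sample over reference of at least 2 at 0 h, which is 4-fold. Its late change, the mean of the 72 and 96 h arrays minus the 0 h mean, lay within 0.5 log2 units of 0, as did its change at 24 h, and its change at 12 h was above -0.7. Both dyes were well above background on all 12 arrays. The members were thus selected on the ratios at 0, 12, 24, 72 and 96 h, which are given as a description from which nothing is inferred. The rule left the ratios at 3, 6 and 48 h free, though its background condition covered those arrays too.

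The cells were 2TS22C, a mouse embryonic stem cell line with an inducible Sox2 knockout, grown with the cytokine LIF. As background on this line, both chromosomal copies of Sox2 are disrupted and a Sox2 transgene that tetracycline (Tc) represses keeps the cells undifferentiated, so that untreated controls carry the disruption and the transgene too. RNA was taken from cells without Tc (0 h) and 3, 6, 12, 24, 48, 72 and 96 h after Tc, with 2 arrays each at 0, 6, 24 and 72 h and 1 array each at 3, 12, 48 and 96 h, all from this 1 line. Cy3 marked the RNA of the cells and Cy5 a universal mouse reference made from 11 cell lines, in the same orientation on all arrays. Nothing says that the arrays of one time came from separate cultures, so the spread between them may be technical. The labels disagree on the Tc sign, and the titles, which give Tc to all samples after 0 h, were followed. Probes carry no gene names here. Sox2 itself, pluripotency genes and markers of other cell types were therefore not read, and each probe stands for an unnamed transcript. In bulk RNA, fewer cells of a type and less RNA per cell cannot be told apart.

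Sox2 is a transcription factor that works with Oct3/4 at shared sites in stem cell genes. Loss of Sox2 lets embryonic stem cells leave the undifferentiated state. One family with many stem-cell-expressed members is that of the C2H2 zinc finger genes, transcription factors built from repeated finger domains joined by a conserved linker, some of which silence retroviral elements.

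The probe sequences, as the files give them from 5′ to 3′, show 3 features of the members that the rule did not use. The first 6 hold a motif of repeated C2H2 zinc fingers, with the motif in capitals. The first 3 of these carry the linker between fingers and the other 3 the start of a finger, each motif being 14 letters long with some positions free. They are shown because probes with these motifs were often enriched at 0 h.
Z00055646-1: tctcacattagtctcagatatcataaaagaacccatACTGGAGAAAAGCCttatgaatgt
Z00060956-1: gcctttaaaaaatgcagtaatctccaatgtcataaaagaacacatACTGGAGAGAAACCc
Z00025631-1: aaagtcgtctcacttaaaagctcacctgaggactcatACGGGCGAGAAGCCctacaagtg
Z00030973-1: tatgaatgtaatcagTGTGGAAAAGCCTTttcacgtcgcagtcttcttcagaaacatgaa
Z00027178-1: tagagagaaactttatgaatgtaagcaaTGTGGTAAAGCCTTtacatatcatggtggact
Z00058870-1: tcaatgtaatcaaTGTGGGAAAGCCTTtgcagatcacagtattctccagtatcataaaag

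The next pair is shown because both probes are among the most enriched members and one may bind the other's transcript. Capitals mark the 5 of 60 positions at which they differ.
Z00060226-1: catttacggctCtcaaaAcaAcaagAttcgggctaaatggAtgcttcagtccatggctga
Z00072411-1: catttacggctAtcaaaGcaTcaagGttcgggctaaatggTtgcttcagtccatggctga

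The last sequence belongs to the member with the second highest ratio at 0 h and consists of 1 repeated unit of 21 bases, the first copy in capitals. Tandem repeats were found in 21 probes of the array, of which this was the only member.
Z00034851-1: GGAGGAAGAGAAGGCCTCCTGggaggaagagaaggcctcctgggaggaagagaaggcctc

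Over the whole series, 93.4% to 99.8% of probe spots were well above background in Cy3. The SD between the 2 arrays of a replicated time was, at the median of the members, 0.05 log2 units at 0 and 6 h, 0.06 for the pair of 24 h and 0.07 for that of 72 h. Per the file headers, images of the 6 arrays up to 12 h were analysed on one day and those of the 6 later arrays on another. Median net Cy3 was 97.0 to 120.0 units on the first day and 122 to 221 on the second. Net signals of single arrays, given in scanner units, are not corrected for this, whereas ratios and single-dye changes are normalized.

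The members' ratios at 0 h spanned the range from the 4-fold limit to 53.2-fold, with a median of 5.44-fold. On the arrays their median log2 ratio was 2.45 on both 0 h arrays, 2.42 and 2.50 (24 h), 2.45 (48 h), 2.42 on both 72 h arrays and 2.36 (96 h). The median difference from the 0 h mean was -0.01 (3 h), 0.02 (6 h), 0.01 (12 h), -0.01 (24 h), -0.07 (48 h), -0.11 (72 h) and -0.20 (96 h). The centre thus lay near 0 through 24 h and slightly below it afterwards. Late changes were negative in 377 members and positive in 194, with quartiles of -0.32 and 0.08. In 374 of the 571 members every one of the 12 arrays lay within 0.5 log2 units of the 0 h mean, and in 39 the 12 arrays spanned more than 1 log2 unit. At 96 h 77 members lay more than 0.5 below their 0 h mean and 11 more than 0.5 above, which the rule allows because it averages 72 and 96 h. The medians depend on the scale: with normexp background correction (offset 50) and loess they were -0.02 for 48 h and -0.09 for 96 h, and with Cy3 alone -0.11 and -0.31. The median late change was -0.15 here, -0.04 with normexp and loess and -0.22 with Cy3 alone.

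**Figure D1:**
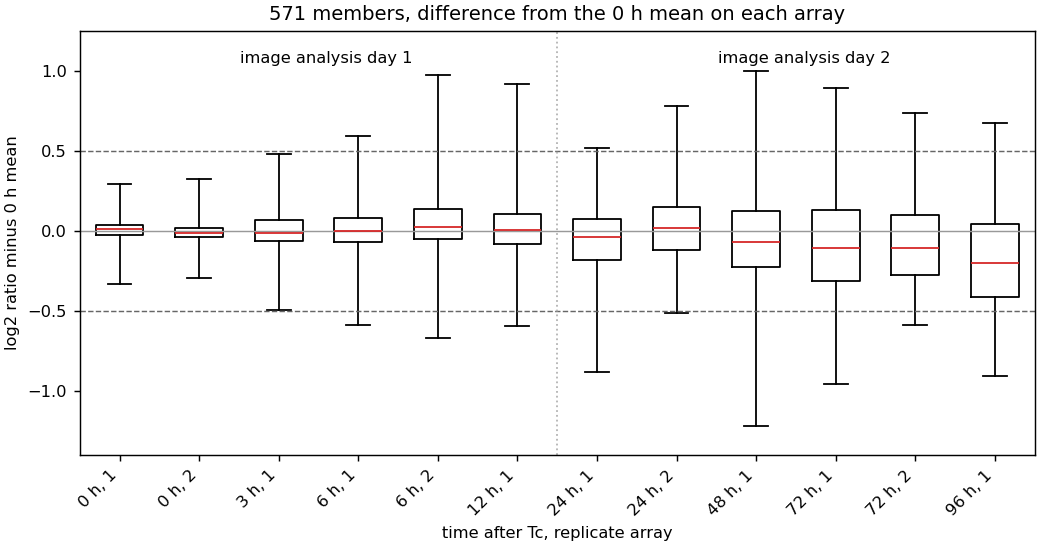
Log2 ratio of sample over reference minus the 0 h mean for the 571 members on each of the 12 arrays (boxes, quartiles; red line, median; whiskers, lowest and highest member; dashed lines, the 0.5 limits of the rule; dotted line, change of image analysis day). The medians lie near 0 through 24 h and reach -0.20 at 96 h.

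All 3 arrays of 72 and 96 h lay below both 0 h arrays in 263 members and above both in 100, while in 208 they overlapped. Among all probes kept for the fits, 29.6% lay below and 27.3% above in the same way, and since the rule used this contrast nothing is read from these counts.

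Of 1452 probes with a log2 ratio of at least 2 at 0 h, 81 failed the background condition. Of the remaining 1371, 571 were members, 626 had a late change of -0.5 or less, 122 one of 0.5 or more, and 52 failed only a limit at 12 or 24 h. The share of members was 45.4% of 957 probes with a log2 ratio of 2 to 3, 33.2% of 283 with 3 to 4, 31.1% of 106 with 4 to 5 and 40.0% of 25 with 5 or more. The share with a late change of -0.5 or less was 41.1%, 55.5%, 59.4% and 52.0% in the same order. No gap separated members from other enriched probes: 107 had a late change of 0.4 to 0.5 in size, and 95 enriched probes lay just outside, at 0.5 to 0.6. The closest members inside the limit were at -0.50 (Z00070934-1) and 0.49 (Z00032042-1), and the closest outside were at -0.50 (Z00060559-1, beyond the limit by less than the rounding) and 0.50 (Z00011955-1). At the enrichment limit, Z00011559-1 was inside at 2.00 and Z00069251-1 just outside, also 2.00 after rounding.

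**Figure D2:**
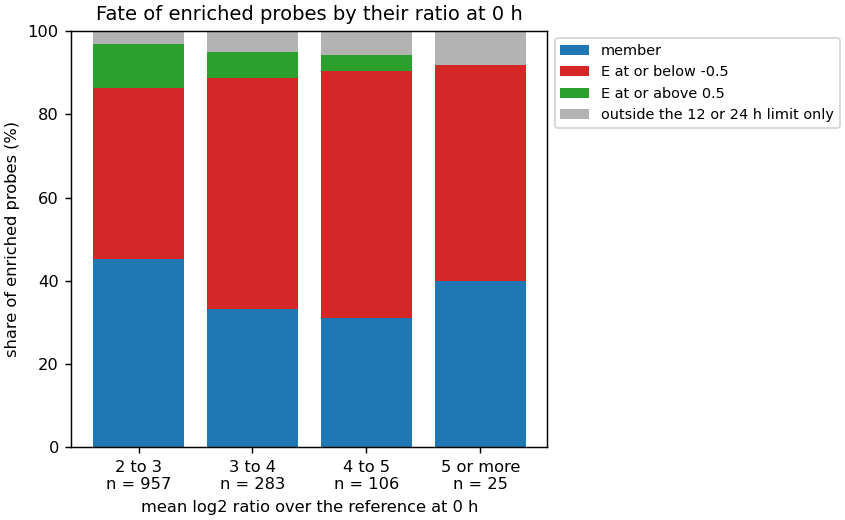
Share of enriched probes in each bin of the mean log2 ratio at 0 h that were members (blue), had a late change of -0.5 or less (red), of 0.5 or more (green), or failed only the 12 or 24 h limit (grey). Members make up 31.1% to 45.4% of each bin.

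A level ratio was not in every case a level sample signal. When each dye was normalized by itself, 327 of 570 members with a value kept Cy3, the sample's own signal, within the limits of the rule. That is 57.4%, against 25.5% of all enriched probes and 70.1% of all probes kept for the fits. The late change in Cy3 alone was beyond 0.5 in 207 members, lower in 140 and higher in 67, and spanned -2.28 to 2.97 log2 units. These were 36.3% of members, where 69.3% of all enriched probes and 22.9% of all probes were beyond 0.5. In 46 members the late change in Cy3 was at least 2-fold, 27 higher and 19 lower. The same held in 559 of 1370 enriched probes and in 2535 of 41739 among all probes. In such members the rule itself requires Cy5 to differ in the same direction, although Cy5 held the same reference RNA on all arrays. The label of retained transcripts therefore goes further than the data: the ratio is bounded only at the times that the rule used, and Cy3 met the same limits in the 327 alone. The probes are called members here, by their rule.

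Probe Z00003486-1 had the largest Cy3 difference. Its log2 ratio was 3.72 and 3.57 (0 h), 3.66 (3 h), 3.85 and 3.80 (6 h), 3.82 (12 h), 4.05 and 4.01 (24 h), 3.95 (48 h), 3.82 and 3.82 (72 h) and 3.70 (96 h). Its net Cy3 signal was 753 and 857 units (0 h), 4806 and 2448 (24 h), 9217 (48 h), 10011 and 4457 (72 h) and 14688 (96 h). Its net Cy5 signal was 136 and 176 units (0 h), 672 and 412 (24 h), 1301 (48 h), 1501 and 659 (72 h) and 1956 (96 h). From 24 h on both dyes were brighter on every array than on either 0 h array, while the ratio spanned 0.48 log2 units. Probe Z00054025-1 likewise had net Cy3 of 633 and 644 units (0 h) and 11871 (96 h), and net Cy5 of 38.7 and 45.9 and then 692, with a late change of 0.15 in the ratio. In the opposite direction, Z00013472-1 had net Cy3 of 2260 and 2569 units (0 h) and 652, 724 and 731 on the arrays of 72 and 96 h. Its Cy5 was 572 and 745 and then 217, 225 and 232, with a late change of -0.23 in the ratio. These 3 probes were chosen after their values were seen.

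The fit of Cy3 alone was also run on arrays whose ratios the rule did not use. In 48 h against 3 and 6 h, limma on Cy3 alone called 140 of 566 members at an adjusted p under 0.05, or 24.7%, against 11.5% of all probes tested. Of these, 45 rose and 95 fell, where 4.64% of all probes rose and 6.88% fell. Cy3 of Z00003486-1 rose by 2.75 log2 units (SE 0.50, limma adjusted p = 0.0206), that of Z00054025-1 rose by 1.16 (SE 0.14, limma adjusted p = 0.00626), and that of Z00013472-1 fell by 1.09 (SE 0.14, limma adjusted p = 0.0065). The ratios of the same probes differed by 0.18, -0.04 and 0.00 log2 units, with limma adjusted p of 0.133, 0.863 and 0.996. Of the 140 members, 86 were not called by ratio. Z00031032-1, whose late change in Cy3 alone was -2.10, was not among the 140: its Cy3 differed by 0.04 log2 units (SE 0.10). Members had to be well above background in both dyes on all arrays. Their median net Cy3 at 0 h was 854 units, against 118 for all probes kept for the fits. No fit of Cy3 alone was limited to bright probes. The comparison of 48 h with 3 and 6 h crosses the image analysis days, so that day and time cannot be told apart.

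Among all 1370 enriched probes with a value, a set not limited by the late change, late changes in Cy3 and Cy5 correlated at r = 0.71 for log2 ratios of 2 to 3, 0.79 for 3 to 4 and 0.83 at 4 or more, against 0.58 over 30676 probes with ratios within 1 log2 unit of 0. These correlations are across probes that share arrays, scans and normalization, and are a description. The share with a Cy5 late change beyond 0.5 was 9.83%, 32.9% and 55.7% in the same order, against 7.13%. Among members alone r was 0.91, which the rule itself raises by holding the ratio level. The part of the dyes, the scanning or the reference in this was not tested.

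**Figure D3:**
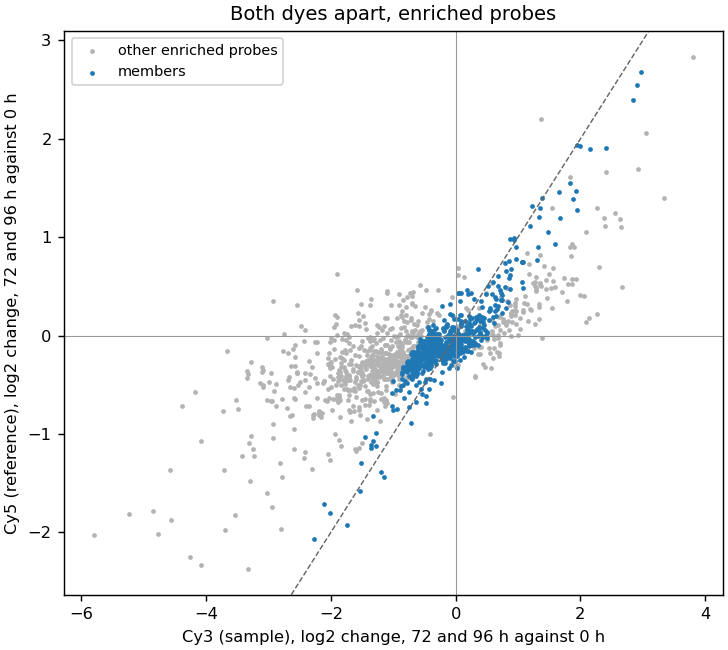
Late change in Cy5 (reference RNA, the same on all arrays) against late change in Cy3 (sample) for enriched probes, each dye normalized by quantiles; members in blue, other enriched probes in grey, dashed line at equal change. Members lie near the line by their definition and reach Cy3 changes from -2.28 to 2.97 log2 units.

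The 4 members with the highest ratio at 0 h differed in how far the signal followed the ratio. Z00000953-1 had log2 ratios of 5.82 and 5.65 (0 h), 5.56 (3 h), 5.70 and 5.67 (6 h), 5.63 (12 h), 5.71 and 5.75 (24 h), 5.68 (48 h), 5.68 and 5.61 (72 h) and 5.57 (96 h). Of the 3 late arrays, 1 lay within the span of the 0 h pair and the others just under it. Its net Cy3 signal was 6650.1 and 7222 units (0 h), 12736 (48 h) and 16012, 16380.2 and 13666 on the arrays of 72 and 96 h. Its net Cy5 was 261 and 318 units (0 h), 561 (48 h) and 672, 651 and 528 later, with late changes of 0.81 in Cy3 alone and 0.66 in Cy5 alone, so both dyes were brighter. From 3 and 6 h to 48 h Cy3 alone rose by 0.67 log2 units (SE 0.12, limma adjusted p = 0.0189).

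Z00034851-1, the probe of repeated units, had log2 ratios of 5.77 and 5.64 (0 h), 5.53 (3 h), 5.57 and 5.63 (6 h), 5.57 (12 h), 6.17 and 6.14 (24 h), 5.63 (48 h), 5.57 and 5.55 (72 h) and 5.28 (96 h). Both 24 h arrays were the highest of the 12, at a difference of 0.45 that the rule just admits. Net Cy3 was 5973 and 5758 units (0 h), 10492 and 9104 (24 h) and 5353 (96 h), and after normalization of each dye the 24 h difference was 0.54 in Cy3 and 0.00 in Cy5.

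Z00072411-1 had log2 ratios of 5.74 and 5.65 (0 h), 5.63 (3 h), 5.85 and 5.66 (6 h), 5.65 (12 h), 5.81 and 5.78 (24 h), 5.81 (48 h), 5.59 and 5.58 (72 h) and 5.42 (96 h). Its close relative Z00060226-1 had 5.49 and 5.33 (0 h), 5.30 (3 h), 5.46 and 5.43 (6 h), 5.34 (12 h), 5.29 and 5.40 (24 h), 5.58 (48 h), 5.43 and 5.43 (72 h) and 5.20 (96 h). In both, the 96 h array was the lowest of the 12. Their late changes in Cy3 alone were -0.47 and -0.48, and in Cy5 alone -0.61 and -0.69. The signals of Z00060226-1 were among the brightest named here, with net Cy3 of 38734 and 39716 units (0 h), 61770 and 58985 (24 h) and 31288, 34993 and 30998 on the arrays of 72 and 96 h. Since the sequences differ at 5 positions only, which transcript each probe reads cannot be told apart.

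Z00070970-1 had log2 ratios of 5.69 and 5.59 (0 h), 5.62 (3 h), 5.61 and 5.66 (6 h), 5.64 (12 h), 5.64 and 5.83 (24 h), 5.64 (48 h), 5.46 and 5.41 (72 h) and 5.18 (96 h). Net Cy3 was 2740 and 3460 units (0 h) and 1548, 1708 and 1746 on the arrays of 72 and 96 h, and net Cy5 was 125 and 171 and then 89.2, 91.8 and 98.4 units. From 3 and 6 h to 48 h Cy3 alone fell by 1.14 log2 units (SE 0.16, limma adjusted p = 0.00979), whereas the ratio differed by 0.01 (SE 0.09, limma adjusted p = 0.955).

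**Figure D4:**
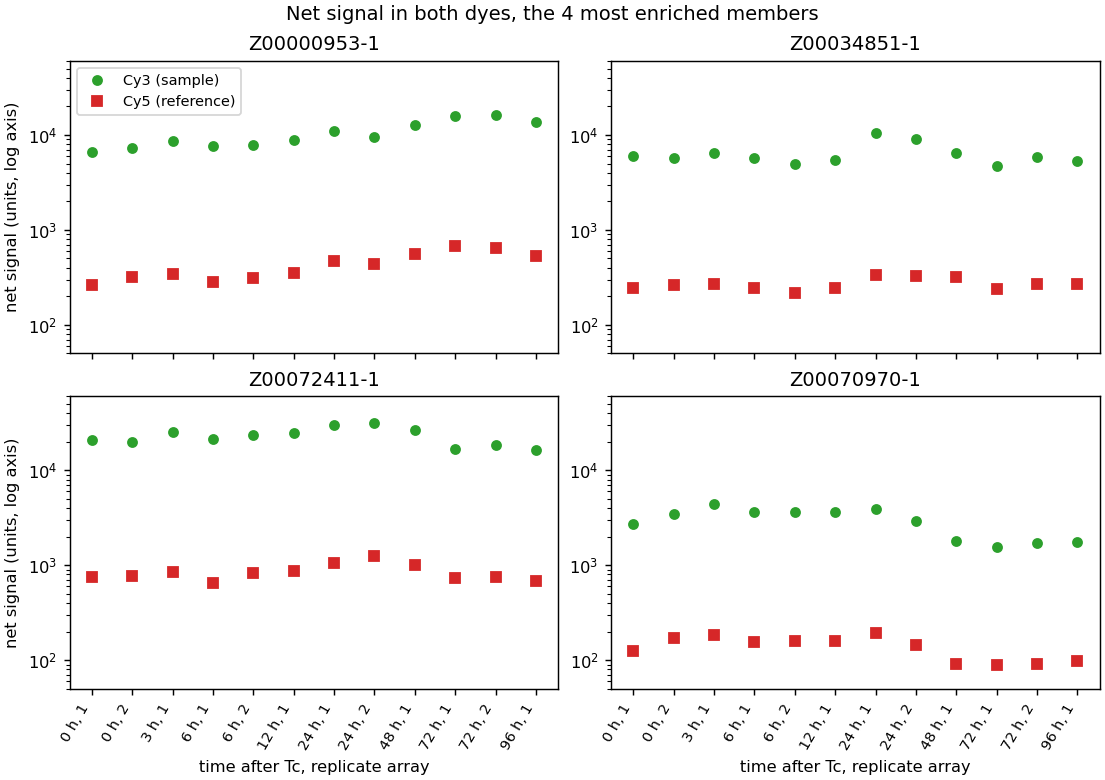
Net signal (mean signal minus local background, log axis) of the 4 members with the highest ratio at 0 h, on each of the 12 arrays, in Cy3 (sample, circles) and Cy5 (reference, squares). The dyes run in parallel upward for Z00000953-1 and downward after 24 h for Z00070970-1, whereas for Z00034851-1 Cy3 rises more than Cy5 at 24 h.

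In other members Cy3 itself was level. The 3 with the smallest range of Cy3 alone, picked after their values were seen, were Z00014624-1, Z00011559-1 and Z00068102-1, with ranges of 0.24, 0.25 and 0.25 log2 units over 12 arrays. Z00068102-1 had log2 ratios of 2.47 and 2.45 (0 h), 2.47 (3 h), 2.45 and 2.39 (6 h), 2.42 (12 h), 2.48 and 2.55 (24 h), 2.50 (48 h), 2.48 and 2.39 (72 h) and 2.37 (96 h). Its net Cy3 ranged from 5144 to 7255 units, and its log2 ratio spanned 0.18. The ratio of Z00011559-1 rose by 0.29 from 3 and 6 h to 48 h (SE 0.08, limma adjusted p = 0.0466). Its Cy3 alone differed by 0.18, a difference bounded in advance by the choice of a small Cy3 range, so nothing is read from it.

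The ratio fit of 48 h against 3 and 6 h used the 4 arrays whose ratios the rule left out. With limma at an adjusted p under 0.05 it called 104 of 566 members, or 18.4%, where 21.0% of all probes tested were called. Thus the share among members was near the background in this fit. It depended on the processing: with normexp (offset 50) and loess it was 38.9%, against 27.0% of all probes. At a limma adjusted p under 0.01 it was 5.30%, against 11.2%. In the ratio fit as given, 37 members rose, where 12.2% of all probes did, and 67 fell, where 8.79% did. The median difference was -0.08 over the members and 0.01 over all probes. Of the 791 other enriched probes tested, 486 fell and 62 rose, with a median of -0.57. The 48 h array lay above the 3 earlier arrays in 157 of 571 members and below them in 295, where 36.2% and 33.2% of all probes did. The 67 members that fell had a median difference of -0.40, and 64 of them also had a negative late change, with a median of -0.32. The 37 that rose had a median difference of 0.43, and 36 of them a positive late change. In Cy3 alone the difference had the same sign in 65 of the 67 and 36 of the 37. Cy3 is the numerator of the ratio on the same arrays, and the rule used the late change. Both agreements are therefore a description from which nothing is inferred.

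Z00023644-1 fell most, by 1.31 log2 units (SE 0.18, limma adjusted p = 0.004). Log2 ratios of this probe were 2.95 and 3.16 (0 h), 3.11 (3 h), 3.21 and 3.12 (6 h), 3.21 (12 h), 3.24 and 3.35 (24 h), 1.83 (48 h), 2.81 and 3.28 (72 h) and 2.52 (96 h). The low value was that of the single 48 h array, with net Cy3 of 395 units there against 1179 to 2495 on the other 11 arrays. Z00006609-1 fell by 0.79 (SE 0.15, limma adjusted p = 0.0136). It had log2 ratios of 2.74 and 2.87 (0 h), 2.89 (3 h), 3.08 and 3.05 (6 h), 2.78 (12 h), 2.30 and 2.39 (24 h), 2.22 (48 h), 2.90 and 2.50 (72 h) and 2.59 (96 h). Its lowest values lay at 24 and 48 h, with higher ones after.

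Among the members called, Z00024938-1 rose most, by 0.71 log2 units (SE 0.10, limma adjusted p = 0.00476). Log2 ratios for it were 2.94 and 2.97 (0 h), 2.73 (3 h), 2.84 and 2.79 (6 h), 2.73 (12 h), 3.01 and 2.76 (24 h), 3.50 (48 h), 3.33 and 3.23 (72 h) and 3.06 (96 h), so that 48 h was its highest array. In Cy3 alone its difference was 0.45 with a limma adjusted p of 0.164. Z00056777-1 rose by 0.70 (SE 0.07, limma adjusted p = 0.00173). It had log2 ratios of 2.39 and 2.51 (0 h), 2.52 (3 h), 2.50 and 2.48 (6 h), 2.45 (12 h), 2.90 and 2.99 (24 h), 3.20 (48 h), 2.70 and 2.60 (72 h) and 2.08 (96 h). This is a peak at 48 h with a 96 h value below both 0 h arrays, and the mean of 72 and 96 h met the rule with a late change of 0.01.

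From 3 h to 6 h no member of 570 was called with limma at an adjusted p under 0.05, where 0.00959% of all probes were, 4 in number and all lower. At an unadjusted limma p under 0.05 there were 45 of the 570 members, where 3159 of 41698 probes were, a similar share. With another background correction 1 member was called, as given in the closing section. The 2 times lie in 1 image analysis day.

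The arrays of 72 and 96 h lie within the second day. Since the rule used the mean of these arrays, their difference is given as a description and nothing is read from its calls. The 96 h value minus the mean of 72 h had a median of -0.08 over the members and 0.00 over all probes. The fit with limma called 14 of 568 members, all lower, where 1.72% of all probes were called, 0.609% lower and 1.11% higher. This number was not stable: it was 0 without either array of 0, 6, 24 or 72 h, with the replicate number as a block or with Cy3 alone. In every setting that called members most were lower, though not always all. With normexp (offset 50) and loess, 65 members were lower and 24 higher, where 1162 of all probes were lower and 2432 higher. With the deposited table, members called were 31 lower and 3 higher, where 630 of all probes were lower and 870 higher. Z00005255-1 had log2 ratios of 3.65 and 3.76 (0 h), 3.63 (3 h), 3.85 and 3.92 (6 h), 3.90 (12 h), 3.89 and 3.97 (24 h), 3.95 (48 h), 3.86 and 3.83 (72 h) and 3.18 (96 h), the last of these the lowest of the 12. Z00058005-1 had log2 ratios of 4.80 and 4.81 (0 h), 4.89 (3 h), 4.91 and 5.04 (6 h), 4.87 (12 h), 5.16 and 5.20 (24 h), 4.97 (48 h), 4.70 and 4.48 (72 h) and 3.93 (96 h), with both 24 h arrays the highest and 96 h the lowest. Both values of 96 h come from the single array of that time.

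Most probes of the array that matched the zinc finger motifs shown above were enriched at 0 h. By either motif, which were both chosen after the members' sequences were seen, 61 of 42006 probes matched as given, or 0.145%, and 4 on the opposite strand. In the members 9 held the linker, 14 the finger start and 2 of them both. Of the 61, 37 were enriched at 0 h, or 60.7%, against 3.26% of all probes, and 21 were members, 3.68% of the members. The 16 other enriched probes with a motif all had a late change of -0.5 or less. The 21 members had late changes from -0.50 to -0.39, so all lay in the lower end of the allowed range, and the 37 together spanned -0.86 to -0.39. The members' median difference from 0 h was 0.01 and -0.01 on the 0 h arrays, -0.06 (3 h), 0.02 and -0.01 (6 h), 0.04 (12 h), 0.02 and 0.01 (24 h), -0.13 (48 h), -0.47 and -0.41 (72 h) and -0.47 (96 h). They were level through 24 h and lower on all 3 arrays of 72 and 96 h. Differences of the 21 on these arrays did not overlap those on the 0 h arrays, nor did those of the 16 others. Among all probes kept for the fits, 29.6% had every array of 72 and 96 h below both 0 h arrays. The 16 others had medians of -0.17 (48 h), -0.54 and -0.52 (72 h) and -0.63 (96 h). The rule divides the 37 by their late change and so bounds the spread of the 21, and the probes share sequence, so this is a description. The motifs were chosen with the sequences of members in view, all of them enriched by the rule. Nothing is therefore inferred from the 60.7% either.

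**Figure D5:**
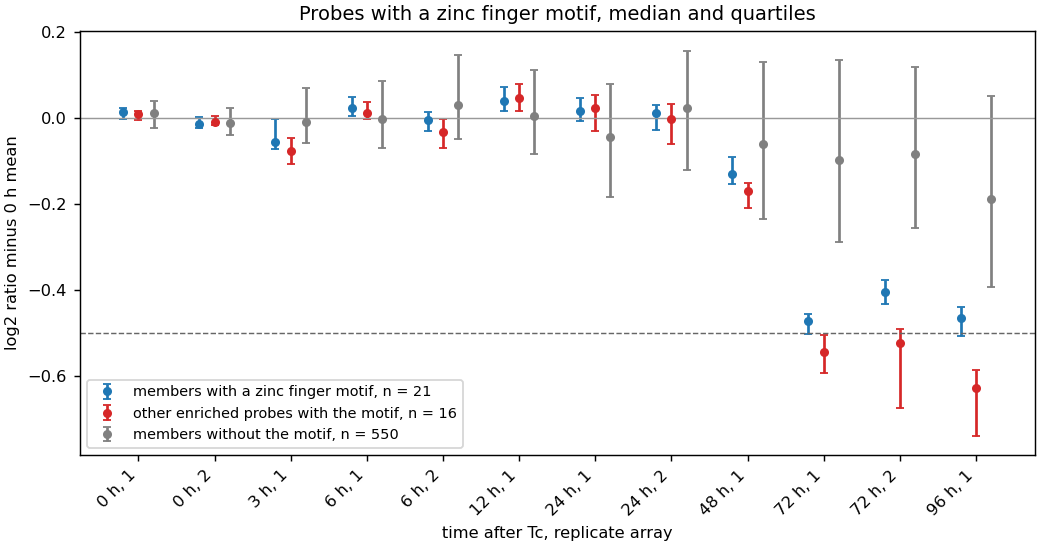
Log2 ratio minus the 0 h mean on each array, median (points) and quartiles (bars), for the 21 members with a zinc finger motif, the 16 other enriched probes with a motif and the 550 members without one; the dashed line is the lower limit of the rule for the late mean. Both motif groups lie near 0 through 24 h and between -0.40 and -0.63 at 72 and 96 h.

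The most enriched of the 21, Z00055646-1, was 34.6-fold over the reference at 0 h. Its log2 ratio was 5.13 and 5.09 (0 h), 5.11 (3 h), 5.27 and 5.33 (6 h), 5.18 (12 h), 5.15 and 5.22 (24 h), 5.13 (48 h), 4.83 and 4.66 (72 h) and 4.36 (96 h). Z00027178-1 was 8.62-fold over the reference at 0 h, with log2 ratios of 3.11 and 3.11 (0 h), 3.01 (3 h), 3.15 and 3.10 (6 h), 3.13 (12 h), 3.16 and 3.13 (24 h), 3.02 (48 h), 2.59 and 2.64 (72 h) and 2.62 (96 h). Of the 21, 1 fell in 48 h against 3 and 6 h, Z00025631-1, by 0.31 (SE 0.07, limma adjusted p = 0.025), where 8.79% of all probes fell. The differences of all 21 in that comparison were negative, from -0.31 to -0.01. In Cy3 alone the late change was negative in all 21, from -1.02 to -0.35 with a median of -0.57, and in Cy5 alone its median was -0.25.

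Zinc finger genes form families of similar sequence, so a probe can bind several of their transcripts and the 21 values are not 21 independent measurements. Among all members, 49 pairs of probes shared a run of at least 20 bases or matched at 48 or more of 60 positions. Of these, 37 pairs linked 18 probes into 1 group that holds zinc finger motifs. The other 12 pairs of 24 probes had late changes that differed by 0.08 at the median and by 0.28 at most. Probes of such a pair may read 1 transcript or several.

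Beyond these motifs, GC content and the polyadenylation motif AATAAA of the members were also set beside those of other probes. Their median GC content was 41.7%, against 43.3% for all probes and 40.0% for the other enriched probes. AATAAA was, as given, in 7.01% of members, 6.75% of all probes and 9.38% of the other enriched probes. On the opposite strand it was in 2.80%, 3.42% and 3.75% in the same order.

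Exact matches to the RefSeq promoter windows of GRCm38.p6, which run from 250 bases before to 50 after a gene's start, placed 288 probes of the array and 6 members. They give a position, and the transcript that a probe reads was not determined by them. Z00063945-1 lies at chr10:77978615-77978674 on the plus strand, across the start of Cfap410. Its log2 ratio was 2.25 and 2.34 (0 h) and 2.63, 2.22 and 2.57 on the arrays of 72 and 96 h, which overlap. Z00055649-1 lies at chr15:99590881-99590940, before the start of Aqp5 and within the span of Gm34765, and was the most enriched of the 6 at 18.6-fold. Z00044170-1 lies at chr17:56717818-56717877, before the start of Vmac and within the span of Ndufa11, a subunit of mitochondrial complex I. Z00066557-1 lies at chr19:5567781-5567840, before the start of Ap5b1 and within its span, on the strand opposite to it. None of these 4 was called in any of the 3 ratio tests, while in Cy3 alone Z00066557-1 fell by 0.96 log2 units from 3 and 6 h to 48 h (SE 0.22, limma adjusted p = 0.0449).

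In the remaining 2 matched members saturation limits the ratio. Z00032712-1 lies at chr12:77388801-77388860, in the window of Fut8 on its opposite strand, and Z00060927-1 at chr7:48736452-48736511, in the window of Gm45086 on its opposite strand. Both were saturated in Cy3 on the 8 arrays from 0 to 24 h and on none later. Net Cy3 of Z00060927-1 was 65156 units on both 0 h arrays, 61499 (48 h) and 34930.1, 39370 and 46112 on the arrays of 72 and 96 h, and its net Cy5 was 19824 and 19699 (0 h) and 13336, 13561 and 14494 later. Its log2 ratio of 2.32 before Tc is therefore a lower bound, its late change of -0.05 is an upper bound, and its late signal was lower in both dyes. In all, 6 members were saturated in Cy3 on at least 1 array and 0 on all 12.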

How the data were processed

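RNA of 12 samples was measured on 2-colour arrays of 60-base probes. Per the file headers, images were read with Agilent Feature Extraction 7.5.1, and the intensities of each dye in the deposited scanner files are background-subtracted and dye-normalized. The deposited series table holds log10 values: on 88.8% to 90.1% of probes per array they match the log10 ratio plus the mean log10 reference within 0.001. Its column medians were 2.98, and it served as an alternative.

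The log2 ratio of Cy3 over Cy5, taken from the deposited processed intensities, was averaged over the spots of a probe. Control spots were left out, and outlier spots were left out of the fits but not of the selection. Probes well above background in Cy3 on at least 2 arrays entered (41754, with 252 removed). In limma 3.58.1 (R 4.3.3) 1 model with 8 time groups was fitted, with 4 residual degrees of freedom, so that times with 1 array are assumed to vary like the replicated ones. The contrasts were 48 h against 3 and 6 h, 6 h against 3 h, and 96 h against 72 h (given as a description, since the selection used the mean of these arrays), with Benjamini-Hochberg adjustment over all probes tested and a threshold of 0.05. Signals of Cy3 and Cy5 alone were normalized by quantiles between arrays. Net signal is mean signal minus local background. The fits were also run on simulated data with known changes and independent noise. Those data held no shift between image analysis days, so they do not show how the fits behave under one. Python 3.11.15, numpy 2.4.6, pandas 2.3.3 and matplotlib 3.10.9 were used otherwise.

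Named probes were the 4 members with the highest ratio at 0 h and, for each test, the 2 that rose most and the 2 that fell most among those called; other named probes were chosen after their values were seen or by their location. The members and all lists were chosen with earlier results of these data known. The comparison of the dyes and the zinc finger motifs were added after seeing the data. Gene lists, cell type markers and Sox2 were not analysed here for want of gene names. Alternatives covered background correction, centring, dye, filter, outlier spots, threshold, the replicate number as a block, leaving out each array and the limits of the selection. The number of arrays limits the precision.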

Additional observations from a re-analysis of the deposited data

How the results depend on the processing

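The number of members was 391 with normexp (offset 50) and loess, 304 with limits of 0.3 and 784 with limits of 0.7. It was 2702 with a log2 ratio at 0 h of at least 1, 137 with at least 3, and 537 to 614 without single arrays. Of the members, 327 met the limits in Cy3 alone. For 48 h against 3 and 6 h, 4793 probes were called with Cy3 alone, 4663 at an adjusted p under 0.01 and 1004 at 2-fold or more, and 7333 to 8748 without single arrays. Members called were 220 with normexp (offset 50) and loess, 30 at an adjusted p under 0.01 and 1 at 2-fold or more, and 75 to 104 without single arrays. The 220 members were 38.9% of those tested, where 11229 or 27.0% of all probes were called with the same processing. The difference of Z00070970-1 turned from 0.01 to -0.24 with normexp (offset 50) and -1.14 with Cy3 alone. For 6 h against 3 h, normexp (offset 50) called 58 probes and 1 member, Cy3 alone 1 probe, and leaving out single arrays 3 to 14 probes and 0 members. For 96 h against 72 h, probes called were 3594 with normexp (offset 50), 0 with Cy3 alone, 1500 with the deposited table, 1211 with probes well above background in both dyes on all arrays, 0 at an adjusted p under 0.01, 29 at 2-fold or more, and 0 to 718 without single arrays. Members called were 89, 0, 34, 27, 0, 0 and 0 to 14 in the same order, and 8 with normexp (offset 0). All 14 were lower in the fit as given, whereas 24 of the 89 and 3 of the 34 were higher. The members' median difference from 0 h moved from -0.07 to -0.02 with normexp (offset 50) and -0.11 with Cy3 alone for 48 h, from -0.20 to -0.09 and -0.31 for 96 h, and for the late change from -0.15 to -0.04 and -0.22. The causes of these differences were not tested.

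The replicate number was not shown to pair arrays, since deviations of same-numbered arrays correlated at -0.01 to 0.17 over 6 pairs. With the replicate number as a block, 7924 probes and 83 members were called for 48 h against 3 and 6 h, 3 probes for 6 h against 3 h, and 0 probes and 0 members for 96 h against 72 h. The lone arrays of 3, 48 and 96 h could not be left out of the comparisons that need them.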
